A study of Mus musculus with 6 samples.

Results

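The genes described here, 10 in number, encode matricellular proteins and fibronectin: Postn, Tgfbi, Tnc, Thbs1, Thbs2, Sparc, Smoc1, Smoc2, Spon1 and Fn1. They were taken by name from the platform annotation, as the genes of probe sets that name exactly 1 gene. All 10 were found among the 19938 genes measured, each with 1 probe set, and no probe set naming several genes held any of them. Expression was read on 6 one-colour Affymetrix whole-transcript arrays of MC3T3-E1, an immortal line of osteoblast precursors from the calvaria of newborn C57BL/6 mice. The differentiated group held 3 arrays of cells that had reached confluence and then spent 14 days in DMEM with 0.1 µM dexamethasone, 0.2 mM ascorbic acid-2-phosphate, 10 mM β-glycerophosphate, 1 mM sodium pyruvate and 10% serum. The undifferentiated group held 3 arrays of cells grown in α-MEM free of ascorbic acid, also with 10% serum. Medium, confluence, the 14 days of culture after it and the inducing compounds changed together, so their parts in any difference cannot be told apart. Every array comes from the same cell line. The replicates are called independent in the series' design text, which does not say what separated them. The p-values therefore measure the spread between these samples, which may be technical.

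Matricellular proteins are secreted into the matrix and act on cells and on growth factors there rather than forming its load-bearing fibres. Fibronectin is the adhesive glycoprotein that cells pull into fibrils through integrins, and those fibrils serve as a template for collagen and for many matricellular proteins. In bone, periostin, tenascin-C, thrombospondins and SPARC are made by cells of the osteoblast lineage and bear on collagen fibril formation and mineral deposition.

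The comparison asked how expression in the cells differed after osteoblast induction. In differentiated cells 7 of the genes rose, Tgfbi fell, and Sparc and Spon1 did not pass the test. The calls of Tgfbi and Smoc1 were less secure, since each was lost when certain single arrays were left out. Periostin (Postn) was 3.17-fold higher and tenascin-C (Tnc) 2.90-fold higher. Fibronectin (Fn1) was 1.63-fold higher, the thrombospondins Thbs2 and Thbs1 1.47-fold and 1.46-fold, and the SPARC-related proteins Smoc1 and Smoc2 1.25-fold and 1.22-fold. A gene was called changed at an adjusted p under 0.05 in limma, with Benjamini-Hochberg adjustment over all 19938 genes. By that rule 8 of the 10 genes were called, 7 higher and 1 lower, against 35.5% of all genes (16.4% higher and 19.1% lower). Past a 2-fold difference as well there were 2, Postn and Tnc, both higher, against 2.53% of all genes, and 0 lower, against 2.28%. The median log2 fold change was 0.44 over the 10 genes and 0.021 over all genes. The 10 genes, and the lists compared below, were chosen with earlier results of these data known. Their shares and medians beside those of all genes are therefore descriptions and not tests. In RNA from whole cultures, a change in the share of cells that express a gene and a change in RNA per cell cannot be told apart.

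The values are log2 intensities that had been centred, so that the median of each probe set over the 6 arrays is 0. Because the number of arrays is even, the pair of arrays in the middle of the order lie at equal distances on either side of 0. Differences between arrays of the same gene can be read, but levels cannot, so no gene's level is compared with another's and no call of presence or absence is made. Errors are limma's moderated standard errors, intervals are 95% confidence intervals from the same fit, and n is 3 arrays per group throughout.

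**Figure D1:**
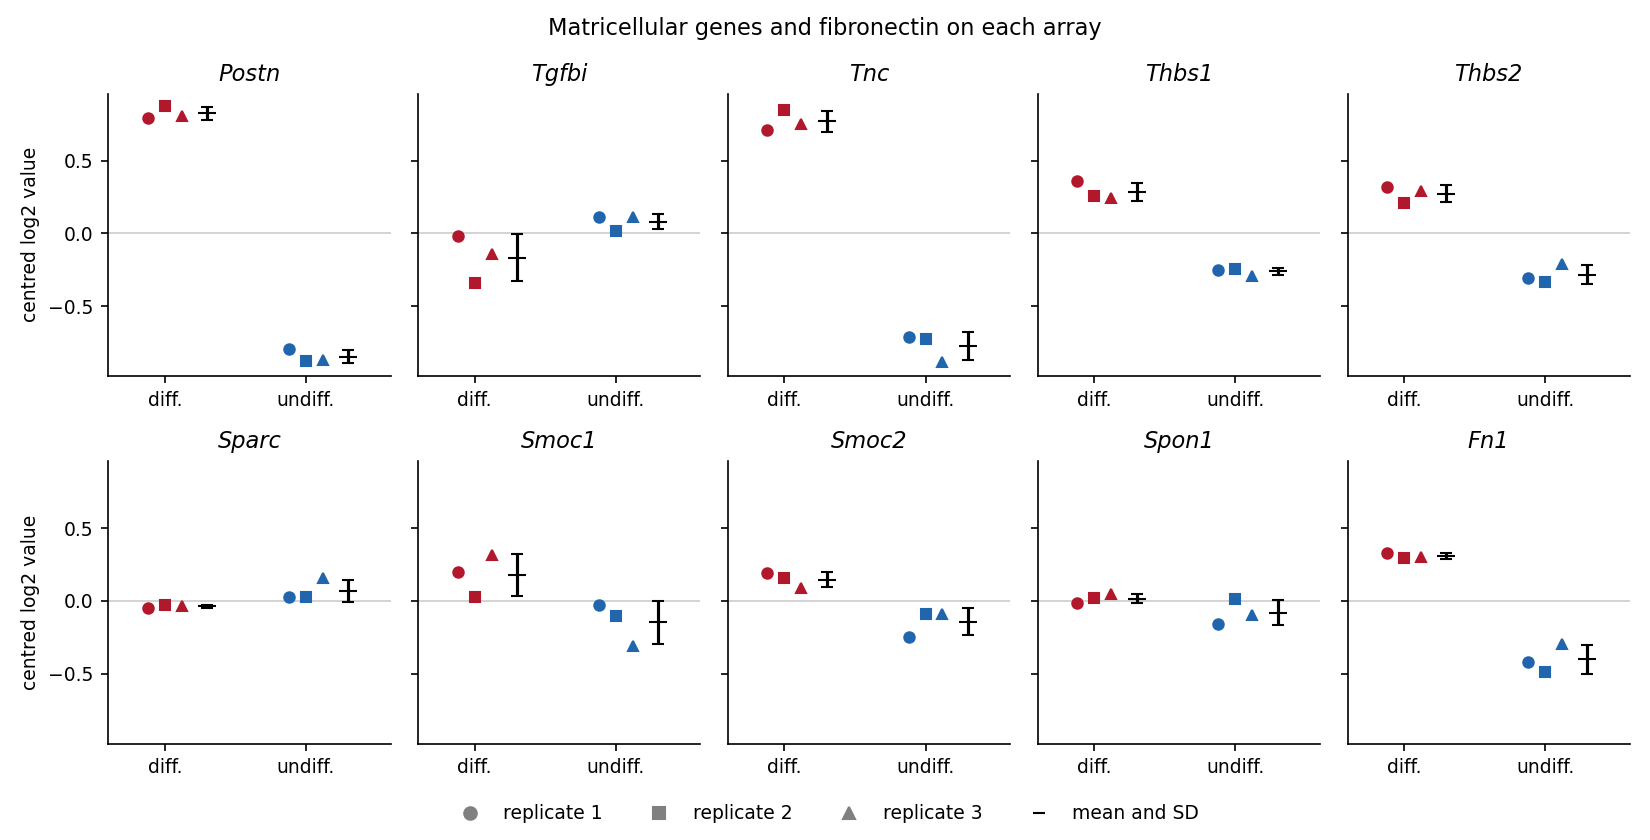
Centred log2 value of each gene (vertical axis, shared scale) on the 3 differentiated arrays (red, left) and the 3 undifferentiated arrays (blue, right), with marker shapes for replicates and the mean ± SD beside them. The groups stand far apart for Postn and Tnc, clearly apart for Fn1, Thbs1 and Thbs2, close together for Smoc1, Smoc2, Sparc and Tgfbi, and they overlap for Spon1.

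Periostin and TGFBI are built from the same fasciclin domains and bind collagen and integrins; periostin is a marker of the periosteum, the sheath in which bone-forming precursors lie. Postn (probe set 10492021) had values of 0.79, 0.87 and 0.80 in differentiated replicates 1 to 3, against -0.79, -0.87 and -0.87 in undifferentiated replicates 1 to 3. The gap between the groups was 1.58, while the arrays of either group spanned 0.079 (differentiated) and 0.083 (undifferentiated). The log2 fold change was 1.67 ± 0.05 (interval 1.54 to 1.79, adjusted p = 6.81e-08 in limma), which ranked 160 among all genes ordered from the largest rise. Over the 15 other settings and left-out arrays it lay between 1.64 and 1.70.

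Tgfbi (probe set 10405587), whose product is induced by TGF-β in many cells, went the other way. Its values were -0.020, -0.34 and -0.14 in differentiated replicates 1 to 3, against 0.11, 0.020 and 0.11 in undifferentiated replicates 1 to 3. The groups did not overlap, but the gap between them was 0.039 and the differentiated arrays alone spanned 0.32, with replicate 2 the lowest. The log2 fold change was -0.25 ± 0.08 (interval -0.43 to -0.061, adjusted p = 0.0434 in limma), a 1.19-fold lower value. The call was lost without differentiated replicate 2 (-0.16, adjusted p = 0.119), differentiated replicate 3 (adjusted p = 0.0880), undifferentiated replicate 1 (adjusted p = 0.114), undifferentiated replicate 2 (adjusted p = 0.0610) or undifferentiated replicate 3 (adjusted p = 0.0891). It held without differentiated replicate 1 (-0.32, adjusted p = 0.0161), and over all 15 alternatives the adjusted p ran up to 0.119.

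Tenascin-C is a large glycoprotein of developing and healing connective tissue that loosens cell adhesion to fibronectin. Tnc (probe set 10513739) stood at 0.71, 0.84 and 0.75 in differentiated replicates 1 to 3, against -0.71, -0.72 and -0.88 in undifferentiated replicates 1 to 3. No array came near the other group, since the gap was 1.42 and the wider span within a group 0.17. Tnc rose by 1.54 ± 0.07 on the log2 scale (interval 1.39 to 1.69, adjusted p = 3.30e-07 in limma), rank 209 from the largest rise.

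Fibronectin is the scaffold on which these proteins gather. Fn1 (probe set 10355403) had values of 0.33, 0.29 and 0.30 in differentiated replicates 1 to 3, against -0.42, -0.49 and -0.29 in undifferentiated replicates 1 to 3. The differentiated arrays lay within 0.035 of each other, and the undifferentiated arrays spanned 0.20. Fn1 rose by 0.71 ± 0.06 on the log2 scale (interval 0.57 to 0.85, adjusted p = 2.44e-05 in limma). The probe set sums the gene as a whole, so the alternatively spliced forms of fibronectin were not analysed here.

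Thrombospondins 1 and 2 bind CD47 and CD36 on cells and restrain blood vessel growth, and thrombospondin 1 can also free TGF-β from its latent complex. Thbs1 (probe set 10474700) had values of 0.36, 0.26 and 0.24 in differentiated replicates 1 to 3, against -0.25, -0.24 and -0.29 in undifferentiated replicates 1 to 3. Thbs2 (probe set 10447951) had 0.32, 0.21 and 0.29 in differentiated replicates 1 to 3, against -0.31, -0.33 and -0.21 in undifferentiated replicates 1 to 3. In each gene every differentiated array was above every undifferentiated array, by a gap of 0.48 in Thbs1 and 0.42 in Thbs2. The log2 fold change was 0.55 ± 0.05 in Thbs1 (interval 0.42 to 0.67, adjusted p = 5.78e-05 in limma) and 0.56 ± 0.06 in Thbs2 (interval 0.42 to 0.69, adjusted p = 7.58e-05).

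SPARC, also called osteonectin, is a collagen- and calcium-binding protein that is abundant in bone matrix. Sparc (probe set 10386058) had values of -0.049, -0.025 and -0.037 in differentiated replicates 1 to 3, against 0.025, 0.028 and 0.16 in undifferentiated replicates 1 to 3. The differentiated arrays were all lower, but the gap was 0.049 and undifferentiated replicate 3 stood above the other arrays of its group. Sparc had a log2 fold change of -0.11 ± 0.06 (interval -0.24 to 0.022, adjusted p = 0.190 in limma). In array signal the interval leaves room for a fall of up to 1.18-fold or a rise of up to 1.02-fold. Because levels were removed, how closely the signal of Sparc follows its RNA is unknown, and the interval does not bound the change in RNA.

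SMOC1 and SMOC2 share SPARC's calcium-binding module, and SMOC1 is known from Xenopus as an antagonist of BMP signalling. Smoc1 (probe set 10396936) had values of 0.20, 0.027 and 0.32 in differentiated replicates 1 to 3, against -0.027, -0.10 and -0.31 in undifferentiated replicates 1 to 3. The groups were parted by 0.054 only, and each spanned about 0.29. The log2 fold change was 0.33 ± 0.09 (interval 0.11 to 0.54, adjusted p = 0.0244 in limma), the widest interval of the 10 genes. The call was lost without differentiated replicate 1 (adjusted p = 0.0719), differentiated replicate 3 (adjusted p = 0.0925) or undifferentiated replicate 3 (adjusted p = 0.0605), and over the 15 alternatives the adjusted p ran up to 0.0925.

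Smoc2 (probe set 10441902) had values of 0.19, 0.16 and 0.087 in differentiated replicates 1 to 3, against -0.25, -0.089 and -0.087 in undifferentiated replicates 1 to 3. Its groups were further apart than those of Smoc1, by 0.17, with undifferentiated replicate 1 the lowest array. Smoc2 had a log2 fold change of 0.29 ± 0.06 (interval 0.14 to 0.43, adjusted p = 0.00659 in limma), and it passed in each of the 15 alternatives.

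Spon1 (probe set 10556509) encodes F-spondin, a secreted protein with thrombospondin repeats that was first described in the floor plate of the spinal cord. It had values of -0.014, 0.020 and 0.044 in differentiated replicates 1 to 3, against -0.16, 0.014 and -0.098 in undifferentiated replicates 1 to 3. It was the only gene of the 10 whose groups overlapped, because undifferentiated replicate 2 lay above differentiated replicate 1. Groups that do not overlap were found for 46.2% of all genes and for 9 of these 10. For Spon1 the log2 fold change was 0.097 ± 0.06 (interval -0.039 to 0.23, adjusted p = 0.263 in limma). A rise in array signal above 1.18-fold lies outside that interval. How far the signal of Spon1 lies above background is unknown, so its change in RNA is not bounded in this way.

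**Figure D2:**
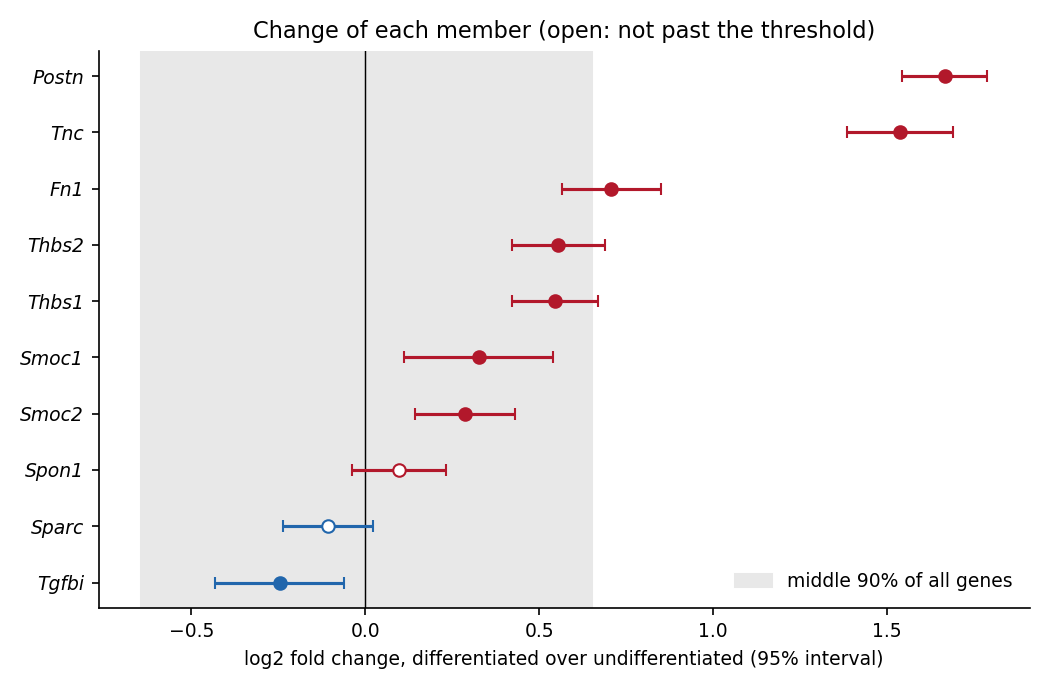
Log2 fold change (differentiated over undifferentiated, horizontal axis) of each gene with its 95% interval, in red above 0 and blue below 0, with open markers for genes that did not pass and a grey band for the middle 90% of all genes (-0.65 to 0.65). Postn and Tnc lie wholly outside the band, Fn1 has its estimate just beyond the band's upper edge, and the other 7 have their estimates inside it.

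Fold changes of different genes were set against each other within 3 families, by taking the difference of the 2 genes' log2 values on each array, so that anything that shifts a whole array cancels. Postn minus Tgfbi was 0.81, 1.21 and 0.95 in differentiated replicates 1 to 3, against -0.90, -0.89 and -0.98 in undifferentiated replicates 1 to 3. The fold changes of these fasciclin proteins thus differed by 1.91 on the log2 scale, and the groups did not overlap (exact two-sided permutation p = 0.1, the smallest that 3 arrays against 3 allow, and 0.3 adjusted over the 3 pairs). With 3 arrays against 3, this permutation test cannot reach 0.05 for any pair.

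Thbs1 minus Thbs2 averaged 0.012 ± 0.05 in differentiated and 0.022 ± 0.09 in undifferentiated arrays (SD, n = 3 each, exact two-sided permutation p = 0.8, also 0.8 after adjustment). The difference of their fold changes was -0.0098, and with each array left out in turn it ranged from -0.060 to 0.024. Smoc1 minus Smoc2 averaged 0.034 ± 0.18 in differentiated and -0.0054 ± 0.22 in undifferentiated arrays (SD, n = 3 each, exact two-sided permutation p = 0.7, and 0.8 after adjustment). That difference of fold changes was 0.040, with -0.070 to 0.15 when each array was left out. Neither pair showed a difference beyond the spread between arrays, which does not show that the genes of a pair changed alike. The spread was wider for the SMOC pair than for the thrombospondins.

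**Figure D3:**
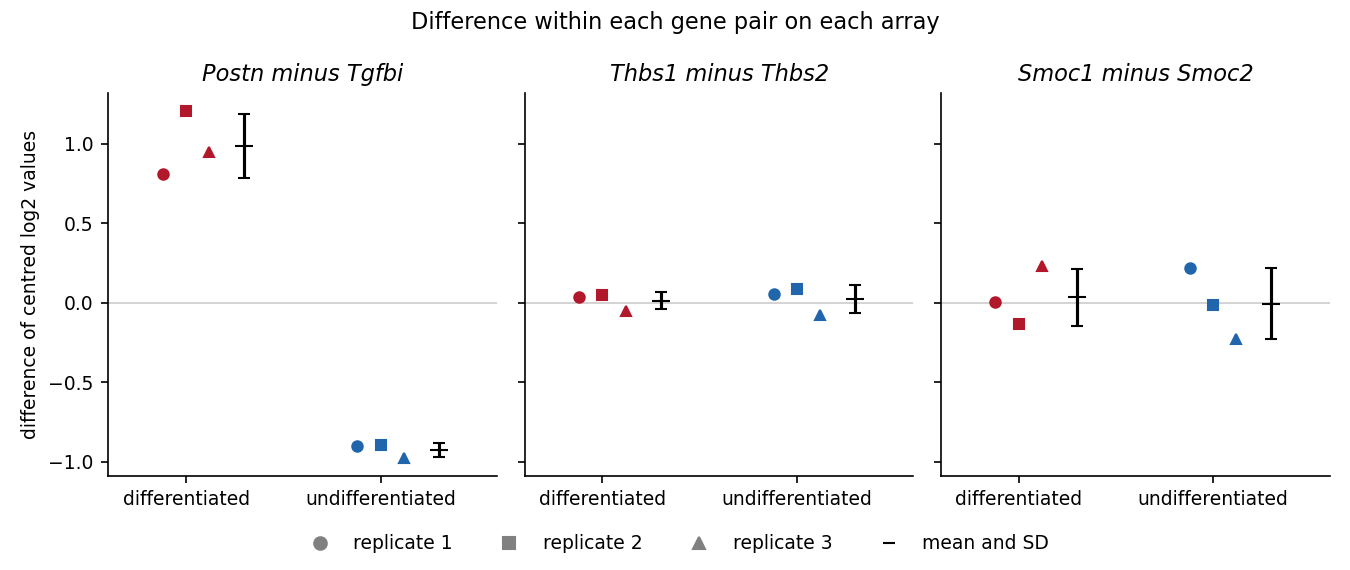
Difference of centred log2 values between the genes of each pair (vertical axis) on the 3 differentiated arrays (red, left) and the 3 undifferentiated arrays (blue, right), with the mean ± SD beside them. Postn minus Tgfbi lies at 0.81 or above in differentiated arrays and at -0.89 or below in undifferentiated arrays, and the other pairs overlap around 0.

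The 3 genes closest to Postn in pattern, by Euclidean distance over the 6 arrays, were Vat1 (distance 0.039), Arhgap24 (0.082) and Nrep (0.11), with log2 fold changes of 1.66, 1.65 and 1.65. Closest to Tgfbi, the gene with the largest fall among the 10, were Cdk18 (0.097), Rnf6 (0.099) and Ccdc71 (0.10), with log2 fold changes of -0.26, -0.25 and -0.29. With 2 groups of arrays such closeness mostly measures the size of the group difference, and it is given as a description.

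Promoter sequences from RefSeq (build GRCm38.p6) were matched for 5 of the 10 genes, Postn, Tgfbi, Tnc, Thbs2 and Sparc, in 7 windows. They are shown for genes that rose (Postn, Tnc, Thbs2) and genes that did not rise (Sparc, Tgfbi). No window was matched for Fn1, Thbs1, Smoc1 and Smoc2, which also rose, or for Spon1. Whether any motif goes with the direction of change was not tested. Each window is the 250 bases before an annotated start, 5′ to 3′ on the gene's strand. They lie at chr3:54360857-54361106, plus strand, for Postn (the second of 2 annotated starts), chr4:64047016-64047265, minus strand, for Tnc (the first of 2 starts), chr17:14694263-14694512, minus strand, for Thbs2, chr11:55420081-55420330, minus strand, for Sparc and chr13:56609336-56609585, plus strand, for Tgfbi. Capitals mark every match, on either strand, to the motifs TATAAA (the TATA box), CCAAT (read by NF-Y), GGGCGG (the GC box read by Sp factors), TGANTCA (read by AP-1), TGTGGT (read by RUNX factors), GGAATG (read by TEAD factors) and AGAACA (a half-site of the glucocorticoid receptor), and no matches overlapped.
Postn: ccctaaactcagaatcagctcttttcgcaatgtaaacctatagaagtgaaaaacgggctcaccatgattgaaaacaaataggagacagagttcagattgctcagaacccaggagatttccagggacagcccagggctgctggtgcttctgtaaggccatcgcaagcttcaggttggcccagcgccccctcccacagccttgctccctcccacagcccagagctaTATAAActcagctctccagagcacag
Tnc: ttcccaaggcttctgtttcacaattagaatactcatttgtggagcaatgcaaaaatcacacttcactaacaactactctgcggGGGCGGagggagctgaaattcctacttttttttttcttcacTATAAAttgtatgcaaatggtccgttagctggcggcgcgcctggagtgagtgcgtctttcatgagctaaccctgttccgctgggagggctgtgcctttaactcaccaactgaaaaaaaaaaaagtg
Thbs2: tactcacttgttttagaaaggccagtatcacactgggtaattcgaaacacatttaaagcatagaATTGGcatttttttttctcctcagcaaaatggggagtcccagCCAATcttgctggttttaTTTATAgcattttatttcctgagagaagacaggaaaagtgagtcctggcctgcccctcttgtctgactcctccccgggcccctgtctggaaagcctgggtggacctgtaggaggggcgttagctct
Sparc: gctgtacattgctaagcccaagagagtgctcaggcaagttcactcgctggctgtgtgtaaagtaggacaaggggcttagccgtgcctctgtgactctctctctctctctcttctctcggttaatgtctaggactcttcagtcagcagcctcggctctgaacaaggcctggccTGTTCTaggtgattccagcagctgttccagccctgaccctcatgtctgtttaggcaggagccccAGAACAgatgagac
Tgfbi: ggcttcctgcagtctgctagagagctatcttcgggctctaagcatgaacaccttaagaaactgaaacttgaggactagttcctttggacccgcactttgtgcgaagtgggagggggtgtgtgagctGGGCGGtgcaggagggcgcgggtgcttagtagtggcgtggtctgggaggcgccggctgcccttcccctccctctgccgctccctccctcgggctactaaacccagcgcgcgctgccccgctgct

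The TATA box letters TATAAA were found in 4 of the 7 windows, while 12.4% of the 32817 promoter windows of the same length held them. These were both overlapping windows of Tnc, which share the match, the window of Thbs2 and the second window of Postn. The first window of Postn, not printed, held none of the motifs. In Postn they began 26 bases before the second start. In Tnc they began 126 bases before the first start and 205 bases before the second. In Thbs2 they lay on the opposite strand, from 126 bases before the start. The GC box letters GGGCGG, which 32.7% of windows held, were found for Tnc and Tgfbi, and CCAAT, held by 33.8%, for Thbs2 alone. AGAACA, a half-site of the glucocorticoid receptor's motif, was found for Sparc alone, at 2 places, and in 16.1% of windows. None of the 7 windows held the AP-1 letters TGANTCA (6.75% of all windows), the RUNX letters TGTGGT (14.0%) or the TEAD letters GGAATG (12.6%). These are matches of letters in short windows of 5 genes, and nothing about the binding of a factor was measured.

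The other matricellular genes listed for comparison moved in both directions and included larger changes than any of the 10. Of 19 measured, 9 rose, 2 fell and 8 did not pass, with a median log2 fold change of 0.12. Spp1 was also listed but was not among the genes tested. Called genes were 57.9% of this list, against 35.5% of all genes. Tnn, which encodes tenascin-W, a relative of tenascin-C found around bone-forming cells, had values of 1.57, 1.66 and 1.67 in differentiated replicates 1 to 3, against -1.78, -1.57 and -2.10 in undifferentiated replicates 1 to 3. Its log2 fold change was 3.45 ± 0.12 (adjusted p = 8.56e-08 in limma), beside 1.54 in Tnc. Tenascins X and R (Tnxb and Tnr) did not pass, at 0.08 ± 0.06 and 0.12 ± 0.05.

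Sparcl1, which encodes hevin, a protein related to SPARC, had values of 1.63, 1.39 and 1.52 in differentiated replicates 1 to 3, against -1.48, -1.62 and -1.39 in undifferentiated replicates 1 to 3. Its log2 fold change was 3.02 ± 0.08 (adjusted p = 2.89e-08 in limma), beside -0.11 in Sparc. Of the other SPARC relatives, the follistatin-like gene Fstl1 (1.09 ± 0.06) and the testican gene Spock2 (1.31 ± 0.06) rose, and the testicans Spock1 (0.10 ± 0.06) and Spock3 (0.06 ± 0.05) did not pass. The SPARC relatives therefore spanned values from near 0 to a rise of 3.02, and the differences between them were not tested.

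Spon2, which encodes the F-spondin relative mindin, had values of -0.82, -0.79 and -0.74 in differentiated replicates 1 to 3, against 1.14, 0.74 and 1.05 in undifferentiated replicates 1 to 3. Spon2 fell, with a log2 fold change of -1.76 ± 0.10 (adjusted p = 1.22e-06 in limma), beside 0.097 in Spon1. The CCN genes, whose products carry a thrombospondin-type repeat, split. Ccn2 (1.72 ± 0.08), Ccn3 (1.47 ± 0.09) and Ccn1 (1.18 ± 0.09) rose, Ccn5 fell (-0.24 ± 0.07, adjusted p = 0.0210), and Ccn4 (-0.10 ± 0.05) and Ccn6 (-0.02 ± 0.09) did not pass. The call of Ccn5 was lost without differentiated replicate 2 (adjusted p = 0.0726), undifferentiated replicate 2 (adjusted p = 0.0654) or undifferentiated replicate 3 (adjusted p = 0.0563). Thbs3 (0.35 ± 0.06) and the cartilage thrombospondin Comp (0.33 ± 0.07) rose, and Thbs4 (0.11 ± 0.07) did not pass. Vitronectin (Vtn, -0.02 ± 0.07) did not pass either.

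Among receptors for these proteins the integrin chains Itgb5 and Itga8 rose most and Itgav fell. Of 17 measured, 8 rose, 1 fell and 8 did not pass, with a median of 0.21. Called genes were 52.9% of this list, against 35.5% of all genes (16.4% higher and 19.1% lower). The integrin chains Itgb5 (1.15 ± 0.07), Itga8 (1.08 ± 0.06) and Itgb8 (0.84 ± 0.07) had the largest rises, with adjusted p of 1.63e-05 or lower. They pair with other chains to bind RGD sequences in fibronectin, vitronectin and other matrix proteins. Itgav, the chain that partners β5 and β8, fell (-0.34 ± 0.06, adjusted p = 0.00181).

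The classical fibronectin receptor joins α5 and β1. Itga5 rose (0.48 ± 0.07, adjusted p = 7.65e-04), and Itgb1 did not pass (0.13 ± 0.05, adjusted p = 0.107). Of the receptors of thrombospondins, Cd47 rose (0.34 ± 0.05) and Cd36 was at 0.04 ± 0.06 (adjusted p = 0.690). Sdc4 (0.63 ± 0.06), Itgb3 (0.53 ± 0.10) and Lrp1 (0.31 ± 0.07) of this list rose as well. With them 8 of the 17 receptors rose, 1 fell and 8 did not pass. Itga3 did not pass with all arrays (-0.21, adjusted p = 0.0693), but it was lower without undifferentiated replicate 3 (-0.28, adjusted p = 0.0132), with array weights (-0.23, adjusted p = 0.0376) and with the replicate number as a block (adjusted p = 0.0361). Without undifferentiated replicate 3, Itga2 was higher as well (0.30, adjusted p = 0.0131), against 0.21 and adjusted p = 0.108 with all arrays.

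The third list held genes for fibronectin assembly, crosslinking and TGF-β, and its members split as well. Of 15 measured, 6 rose, 3 fell and 6 did not pass, with a median of 0.07. Fbn1 was listed too but was not among the genes tested. Called genes were 60% of this list, against 35.5% of all genes (16.4% higher and 19.1% lower). F13a1, a transglutaminase that crosslinks fibrin and fibronectin, rose by 6.85 ± 0.06 on the log2 scale, and its relative Tgm2 by 0.42 ± 0.06. The size in F13a1 depended on the scaling, since it was 5.11 after quantile scaling (34.4-fold, against 116-fold in the main fit). None of the other alternatives moved it as far. The scalings started from centred values, which are not their usual input. Tgfb1 had values of 0.53, 0.56 and 0.38 in differentiated replicates 1 to 3, against -0.51, -0.51 and -0.38 in undifferentiated replicates 1 to 3. It rose by 0.96 ± 0.07 (adjusted p = 5.42e-06 in limma), Tgfb2 rose by 0.76 ± 0.05, and Tgfb3 did not pass (-0.10 ± 0.08).

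The latent TGF-β binding protein Ltbp1, which anchors the latent complex to fibronectin, rose (0.57 ± 0.08). Fibrillar collagen chains, the partners of periostin and SPARC in the matrix, went both ways. Col3a1 rose (0.37 ± 0.06), Col5a1 (-0.54 ± 0.06) and Col1a1 (-0.40 ± 0.07) fell, and Col1a2 did not pass (-0.13 ± 0.06). Bmp1, the procollagen proteinase that periostin binds, fell (-0.27 ± 0.06, adjusted p = 0.00625). Without undifferentiated replicate 2, Tgfb3 was lower as well (-0.19, adjusted p = 0.0434).

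**Figure D4:**
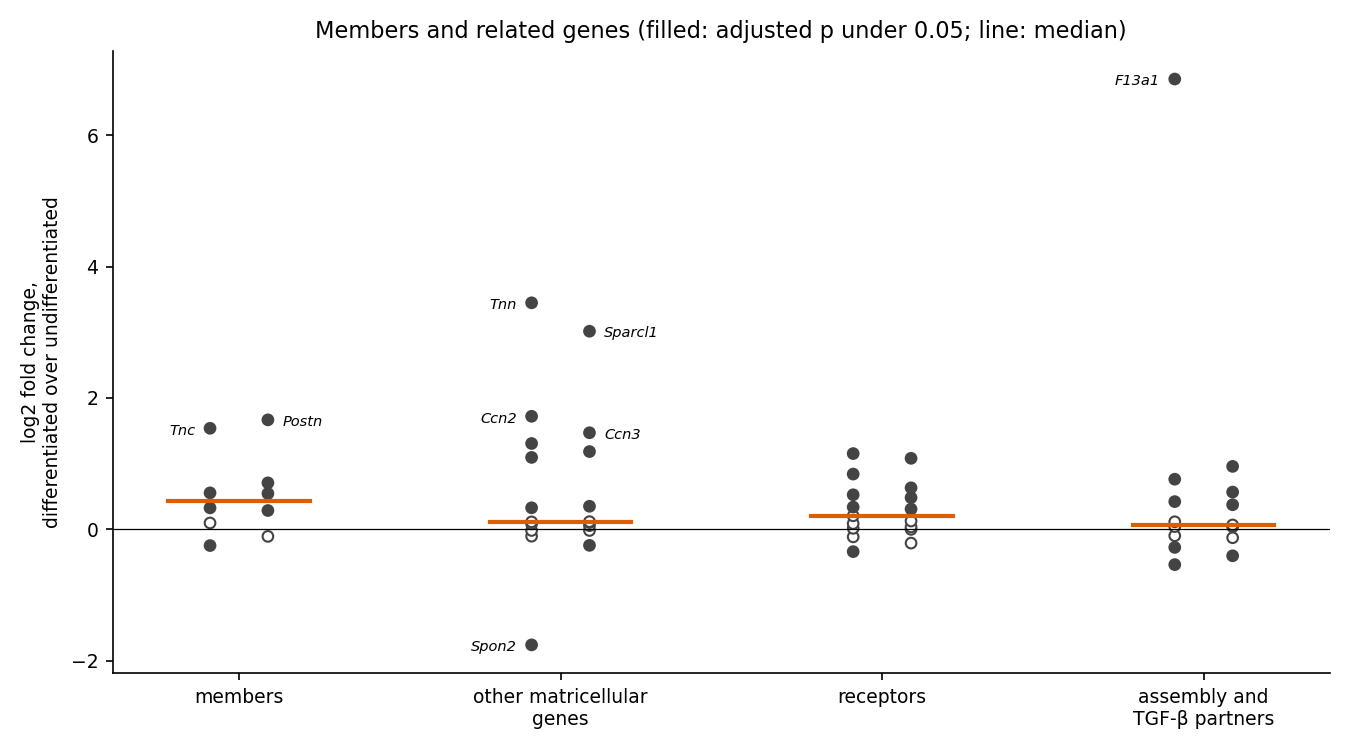
Log2 fold change (differentiated over undifferentiated, vertical axis) of the 10 genes (members) and of the 3 related lists, each point a gene, filled where the adjusted p was under 0.05 and open otherwise, with an orange line at the list's median. The unlabelled points lie between -0.6 and 1.4, and the labelled genes (F13a1, Tnn, Sparcl1, Ccn2, Postn, Tnc, Ccn3 and Spon2) lie outside that range.

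Calls over all 19938 genes numbered 7070. Array medians over all probe sets lay between -0.0050 and 0.0084, and the residual SD of an array around its group means was 0.0745 to 0.0947, highest in undifferentiated replicate 3. Of 7 measured osteoblast markers, 3 rose, led by Dmp1 (3.44) and Ibsp (3.12), 2 fell, Col1a1 (-0.40) and Sp7 (-0.40), and 2 did not pass, and Runx2 and Bglap were not among the genes tested. Markers of other cell types called were 2 of 6 for adipocytes (Fabp4 0.46, Cebpa 0.22), 3 of 6 for chondrocytes (Col2a1 -1.01, Sox9 0.59, and Comp), and 1 of 5 for smooth muscle (Tagln 0.73), endothelium (Vwf 0.23) and macrophages (Cd68 0.44). Called markers were 71.4% of the osteoblast list, 33.3% of the adipocyte list, 50% of the chondrocyte list and 20% of each of the others. The share over all genes was 35.5%. After cyclic loess scaling Sp7 was at -0.21 and lost its call (adjusted p = 0.106). The call of Cebpa was lost without differentiated replicate 1 or 3 or undifferentiated replicate 2 or 3 (adjusted p 0.0788 to 0.121), and that of Vwf without any array but undifferentiated replicate 3 (0.0572 to 0.0752) and after cyclic loess scaling (0.121). Without undifferentiated replicate 3, the endothelial gene Pecam1 (adjusted p = 0.0238) and the cartilage gene Col9a1 (adjusted p = 0.0417) also passed. Whether such cell types were present cannot be read from centred values, and their part in the results above was not tested.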

How the data were processed

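Biotin-labelled RNA of 6 MC3T3-E1 cultures was measured on 1-colour Affymetrix arrays, 1 per sample. The authors deposited log2 values made with RMA, per the submitters' processing notes; its version and the genome build are not given in the sources used here. The values show a further step: all 28856 probe sets are centred on a median of 0, within 1e-06. It leaves differences between arrays intact but removes levels, so no filter on dim probe sets was possible. No depth applies; the number of arrays limits precision.

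The 21789 probe sets naming 1 gene (1621 name several, 5446 none) were averaged into 19938 genes, with symbols updated by gene ID through RefSeq (GRCm38.p6; 21698 matched). Differentiated minus undifferentiated was fitted with limma 3.58.1 in R 4.3.3 (lmFit, eBayes, two-sided), and p-values were adjusted by Benjamini-Hochberg over all genes, with calls at 0.05. The fit was also run on simulated data with independent noise and far fewer changed genes than were called here, and no result rests on that run. The genes described and the lists were chosen with earlier results of these data known. All 10 genes are named whatever their result, with up to 3 called rises and 3 called falls per related list. Other listed genes, such as Itga5, Itgb1, Cd47, Cd36, Ltbp1, Tgm2 and the further relatives of the 10, were named after their values were seen. Alternatives were quantile, median and cyclic loess scaling, a replicate block, other treatments of several probe sets, array weights, robust eBayes and each array left out. Protein sequences were not analysed here.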

Additional observations from a re-analysis of the deposited data

How the results depend on the processing

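Postn, Tnc, Fn1, Thbs1, Thbs2 and Smoc2 passed in all 15 alternatives, and Sparc and Spon1 in none, each with its direction kept. Tgfbi lost its call with array weights (-0.24, adjusted p = 0.0510), which left 0 of the genes lower, and had log2 fold changes of -0.32 to -0.16 without each array in turn. Smoc1 had 0.24 to 0.40 without each array. Over those left-out arrays 6 to 7 of the genes were higher and 0 to 1 lower, 1 to 2 of the other matricellular genes and 1 to 2 receptors were lower, Thbs1 minus Thbs2 ranged from -0.060 to 0.024, and Smoc1 minus Smoc2 from -0.070 to 0.15. Left-out fits have fewer samples, and the cause of each change was not tested. With the replicate number as a block, 3328 genes were higher and 3834 lower in all (3270 and 3800 without), 7 and 1 of the 10 genes, and 2 receptors were lower. Deviations of same-numbered arrays from their group means correlated at r = -0.0013, 0.069 and 0.16 for replicates 1 to 3. Only replicate 3 was over 0.1 and was the highest of the 9 combinations, so not every pair deviated together and the arrays are taken to share only a number. Differentiated replicates 1 and 2 correlated best with undifferentiated replicates 3 (0.029) and 1 (0.13). Calls over all genes ranged from 2675 to 3656 higher and from 3297 to 3923 lower. With every probe set kept apart, 3468 probe sets were higher and 4193 lower, which counts probe sets and not genes. The scalings started from centred values, which are not their usual input. Centring leaves signal over background unknown. A small measured change therefore cannot be told from a larger change in RNA whose signal was compressed in a dim or very bright gene.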
